A study of Schmidtea mediterranea with 6 samples.

Results

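The passage from progenitor to differentiated cells was followed at mapped poly(A) sites of the planarian flatworm Schmidtea mediterranea. The comparison sets the 2 arrays of the gate labelled Xins (differentiated cells) against the 2 arrays of the gate labelled X2 (progenitor cells). Both populations were collected by fluorescence-activated cell sorting from worms of the sexual strain, without any treatment named in the labels, and 2 further arrays held X1 cells (stem cells). The number of animals behind a sample is not in the labels, nor is it said that the 2 samples of a gate were sorted separately, so p-values measure variation between these samples that could be purely technical. A site is a contig, a strand, a start and an end at which transcripts were cut and polyadenylated. The sample labels speak of distal polyadenylation sites. Sites were taken where at least 1 probe was marked well above background by the scanner software on both arrays of X2 or of Xins, and this left 1306 of the 5054 sites on the array. The files give no gene name for any probe. The labelled cell types could therefore not be checked against defining markers, and no gene role can be given to a site.

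Planarian stem cells, the neoblasts, divide in the adult worm and renew its tissues throughout life. Their dividing members are sorted as X1. The X2 gate is known to hold a mixture of small stem cells that are not copying their DNA and of freshly made, non-dividing progenitors. Cells of Xins withstand irradiation and have left the cell cycle. Cleavage of a messenger RNA before its poly(A) tail usually follows a short signal, AATAAA or its variant ATTAAA in DNA letters, that is bound by the cleavage and polyadenylation specificity factor. The region between the coding part and the tail also carries binding sites for RNA-binding proteins. Pumilio proteins bind RNA letters that read TGTANATA in DNA, and in the planarian Dugesia japonica a Pumilio protein is needed to keep the stem cells.

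The next lines show the last 30 bases of the probes for 6 sites that carry the comparison, 3 with a large rise and 3 with a large fall in Xins. They are printed 5′ to 3′ in the order of the scanner files, named by contig and position, with AATAAA or ATTAAA in capitals where it starts 10 to 35 nt before the probe's 3′ end.
Contig6828:2795-2864 (minus strand, rise): taatgcaaaatgatttagtgAATAAAtgtg
Contig18020:8960-8969 (plus strand, rise): tagATTAAAgttttaaatttgttgtttggt
Contig10432:24998-25062 (plus strand, rise): attttAATAAActtttttatttaaatattt
Contig158:162361-162366 (plus strand, fall): gttcggattaattacagattttaaatgact
Contig14:100842-100851 (plus strand, fall): cgAATAAAtgatctggattgttgttcgaaa
Contig1066:10776-10778 (minus strand, fall): gctccgtaATTAAAagttcccatttgagac
Both kinds of site include probes with each signal, and the probe of Contig158 has neither in that window.

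A second set shows 30 bases around the letters TGTANATA, in capitals, at 5 sites that are described with that motif further on. The first 4 fell in Xins and the last rose.
Contig7294:310-346 (minus strand): agatggtgtttTGTAAATAtattttaacgt
Contig14077:785-811 (minus strand): agattgtgtttTGTAAATAtattttaacgt
Contig2858:51191-51247 (plus strand): acaatcattctTGTAAATAgaaagttttta
Contig14241:1351-1351 (minus strand): gagcacgcattTGTAAATAtattttattcc
Contig1287:35568-35580 (plus strand): atcaatgtgatTGTAAATAtaatattctgt
The windows of Contig7294 and Contig14077 are nearly identical, so these sites may be read by much the same RNA. The same holds for Contig30563 and Contig31508, motif sites not printed here. Counts of motif sites further on may thus hold the same RNA more than once.

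Signals are given as log2 intensity relative to the 75th percentile of the array, and a difference between gates is a log2 fold change. Sites with a probe well above background numbered 1489 and 1304 on X2 arrays 1 and 2, and 1442 and 1234 on Xins arrays 1 and 2. The lowest signals so marked lay between -6.29 and -5.27 on these 4 arrays. Of the 1306 sites tested, 996 passed in both gates, 190 passed through X2 alone and 120 through Xins alone. Where a site is said to be at background, no array of that gate had a probe marked well above it. Arrays of the same gate correlated at 0.967 for X2 and 0.951 for Xins across the tested sites, against 0.831 to 0.867 between the gates. These coefficients run across sites, which do not replicate one another, and serve as a description. A number of sites share their probe: 53 of the tested sites carry a sequence that also stands at another site. Precision is limited by having 2 arrays for each gate: the 95% interval of a log2 fold change reached a median of 1.07 to either side.

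Differentiated cells differed from the progenitor gate at 398 sites, 30.5% of those tested. At 203 sites (15.5%) the signal was higher in Xins and at 195 sites (14.9%) it was lower, by limma with Benjamini-Hochberg adjustment at 0.05. In sorted bulk samples, fewer cells of a kind and less RNA per cell cannot be told apart, and this holds for each change below. Every called site had arrays of the gates that did not overlap; over all tested sites, both Xins arrays were above both X2 arrays at 376 (28.8%) and below them at 488 (37.4%). Measured on this scale, rises were larger than falls. The dimmer gate was above background on at least 1 array at 167 of the higher sites, where the median rise was 6.21-fold (quartiles 4.08 and 11.8), and at 157 of the lower sites, where the median fall was 3.23-fold (quartiles 2.77 and 4.11). Of these rises, 128 reached 4-fold, 59 reached 8-fold and 21 reached 16-fold. A saturated spot stood at 3 of the higher sites, whose folds may be understated. Among the falls, 43 reached 4-fold, 1 reached 8-fold and 0 reached 16-fold. The background floor limits how large a measured fall can be, while a rise has no such limit short of saturation. How far this sets the sizes apart was not tested. The smallest change called was 2.11-fold, and 31 sites with a change of 4-fold or more were not called. Where only the 996 sites above background on all 4 arrays are read, 256 were called (25.7%), with 141 higher and 115 lower.

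**Figure D1:**
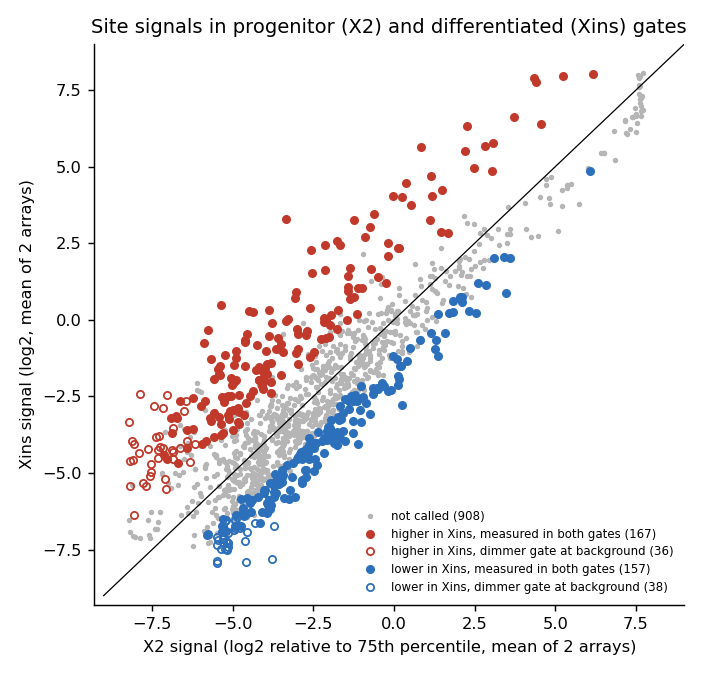
Mean signal of each tested site in X2 (horizontal) and in Xins (vertical), both in log2 relative to the array's 75th percentile, with the line of equal signal. Filled red and blue points are the 167 higher and 157 lower sites measured in both gates, open points are called sites whose dimmer gate was at background, and grey points are the 908 sites that were not called; red points reach farther from the line than blue ones.

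The size of rises against falls depends on how the arrays are scaled. For the same measured sites, the medians were 7.75-fold up and 2.55-fold down in the authors' deposited table, and 3.97-fold up and 5.04-fold down when the arrays were scaled by 7 spike-in controls, so the order turned there. The median log2 fold change of all tested sites was -0.28, moved by 0.34 in the authors' deposited table and by -0.64 with spike-in scaling, and every change here is relative to the 75th percentile. The split of the calls was 51.0% higher here and 76.5% higher in the authors' deposited table. Falls rest on each array: lower calls came to 57 without array 1 of X2, 44 without array 2 of X2, 81 without array 1 of Xins and 96 without array 2 of Xins. Higher calls came to 129, 135, 186 and 149 in the same order. The arrays lay on 1 slide in 2 rows, and X2 array 1 was the only one of the 4 compared in the first row. With the row as a block 217 sites were higher and 245 lower, and within the second row alone 164 and 50.

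The largest rise among sites above background on all 4 arrays was at Contig6828 (minus strand, 2795 to 2864), listed under the transcript model dd_smedV4_566_0_1. Its signal was -3.69 and -3.01 on the X2 arrays, 2.90 and 3.65 on the Xins arrays, and -3.05 and -3.87 on the X1 arrays. Both Xins arrays stood far above all 4 others, and X1 and X2 overlapped. The log2 fold change was 6.62 (SE 0.48, adjusted p = 0.00277 by limma), a 98.4-fold rise. Contig2 (plus strand, 461489 to 461505; model mk4.000002.18.01) went from -5.67 and -5.03 in X2 to 1.32 and -0.32 in Xins, and was not well above background on either X1 array. The Xins arrays differed from each other more than the X2 arrays did, and both were far above X2 (log2 fold change 5.85, SE 0.58, adjusted p = 0.00325 by limma).

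At Contig18020 (plus strand, 8960 to 8969) the X2 arrays read -1.93 and -3.24 and the Xins arrays 3.06 and 1.48. X1, at -2.61 and -2.99, lay within the range of X2, and the rise was 29.0-fold. Contig10432 (plus strand, 24998 to 25062) was different in that X2 itself stood above X1: X1 read -1.56 and -1.11, X2 0.61 and 1.09, and Xins 4.65 and 6.66. The 3 gates did not overlap there, and Xins exceeded X2 by 27.9-fold (SE of the log2 fold change 0.66).

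Contig14458 (minus strand, 4708 to 4712) and Contig28415 (minus strand, 4492 to 4496) carry the same probe sequence, ending in ctaaatacaacgaaaccttgtttttattat, on separate spots, so they cannot be told apart as 2 sites. The first read -3.93 and -5.07 in X2, 1.0 and -0.40 in Xins, and -2.81 and -3.51 in X1. X2 was thus below X1 as well as below Xins on both arrays, with a log2 fold change of Xins over X2 of 4.80 (SE 0.62). The spots of the other site gave 4.63 (SE 0.59).

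Falls were led by Contig27145 (plus strand, 5550; model mk4.027145.01.01), with -0.45 and 0.91 in X2 and -3.34 and -2.22 in Xins. X1 read -0.61 and 0.57 and overlapped X2. The log2 fold change was -3.01 (SE 0.67, adjusted p = 0.0182 by limma), and the call ended without array 2 of X2 (-2.34) and without array 1 of Xins (-2.45). Contig158 (plus strand, 162361 to 162366; model mk4.000158.09.01) had the closest X2 arrays of the 6 named falls measured in both gates, at -1.18 and -1.03, and read -4.13 and -3.94 in Xins. With X1 at 0.93 and 1.04, the 3 gates formed separate steps from X1 down to Xins, and Xins was below X2 by 7.63-fold (log2 fold change -2.93, SE 0.33, adjusted p = 0.00393 by limma).

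Contig587 (minus strand, 24812 to 24829) stood highest in X2, at -3.55 and -2.59, against -6.20 and -5.37 in Xins and -5.14 and -4.60 in X1. In Xins this site lay near the floor, since the lowest signals marked well above background there were -6.22 and -5.27. Its log2 fold change of -2.71 (SE 0.50) was no longer called without array 2 of X2, at -2.23. At Contig169 (plus strand, 51255 to 51286) the X2 arrays read 3.11 and 3.80, the Xins arrays 0.56 and 1.17, and the X1 arrays 2.91 and 3.48. X1 and X2 overlapped and Xins lay 6.02-fold below X2.

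The last of the named falls were smaller but had close arrays. Contig14 (plus strand, 100842 to 100851) read 1.19 and 1.52 in X2 and dropped to -1.33 and -1.02 in Xins (log2 fold change -2.53, SE 0.38), with 1.71 and 2.26 in X1. Contig1066 (minus strand, 10776 to 10778) went from -1.60 and -1.41 to -3.89 and -4.03, a log2 fold change of -2.45 (SE 0.33), with -2.27 and -2.19 in X1. In the first of these X1 was above X2, and in the second it lay between the gates. Another processing corrected background by normexp, with an offset of 50 added to every signal, and quantile normalized the arrays. The log2 fold changes of 13 of the 18 named sites then shrank by a factor over 1.5, and the calls of Contig27145 (-1.76) and Contig587 (-0.47) ended. An added constant by itself makes changes at dim sites smaller, and its part was not tested.

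**Figure D2:**
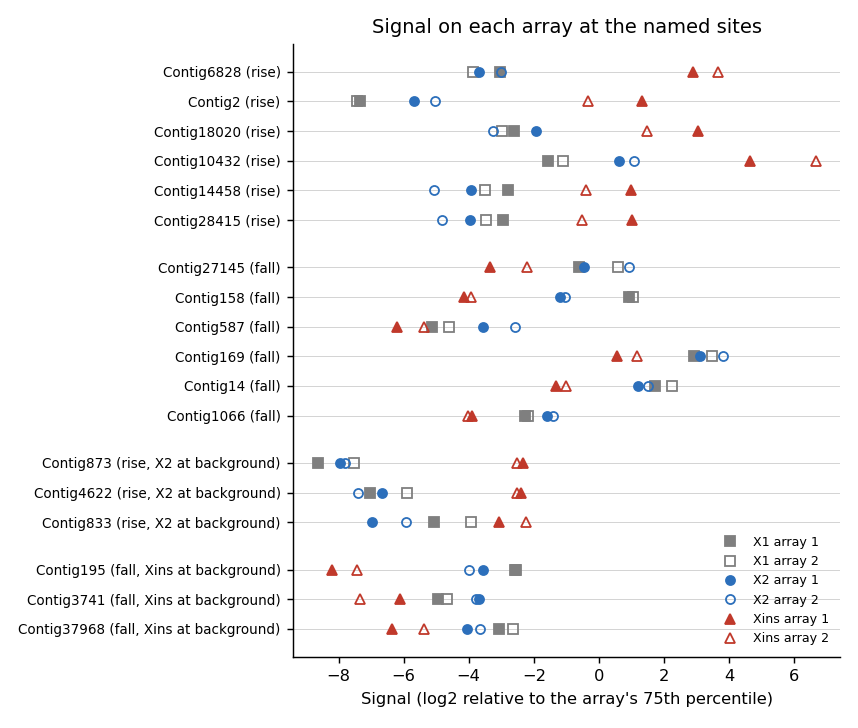
Signal on each of the 6 arrays (log2 relative to the array's 75th percentile, horizontal) at the 18 named sites, filled symbols for array 1 and open symbols for array 2 of a gate. At each site the 2 Xins triangles do not overlap the 2 X2 circles, by the rule that chose the sites, while the X1 squares lie near X2 at some sites and apart from both gates at others.

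Detection was counted as changed where both arrays of 1 gate and no array of the other were above background. This rule is stricter than passing through 1 gate alone. There were 57 sites above background on both Xins arrays and no X2 array, and 57 above background on both X2 arrays and no Xins array. Detection in X1 was unlike between these groups: 44 of the former were at background on both X1 arrays too, against 5 of the latter. The groups were picked by their detection in X2 and Xins, so this difference is a description. Among the called sites, the dimmer gate was at background at 36 of the higher and at 38 of the lower. Folds there are lower bounds. The mean of the brighter gate was set against a floor for the dimmer gate, which on each array was the lowest signal still marked well above background, or the site's own signal if that was greater. A bound above 1 was reached at 35 higher sites (median bound 3.31-fold) and at 37 lower sites (median bound 1.48-fold).

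Contig873 (minus strand, 57718) read -2.33 and -2.53 in Xins and was at background in X1 and X2, which makes it at least 11.4-fold higher in Xins than in X2 (adjusted p = 0.00277 by limma). Contig4622 (plus strand, 30302 to 30346), at -2.40 and -2.50 in Xins and at background elsewhere, was at least 11.1-fold higher. Contig833 (minus strand, 70952 to 70953) was at least 9.68-fold higher, with -3.08 and -2.23 in Xins. This site was above background in X1, at -5.07 and -3.92, so it was at background in the progenitor gate alone. These bounds hold for the scanner software's own background correction. With normexp (offset 50) and quantile normalization the log2 fold changes were 0.74 at Contig873, 0.74 at Contig4622 and 0.61 at Contig833, still called but far smaller. How much of this is due to the offset was not tested.

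On the other side, Contig195 (minus strand, 51011) read -2.57 and -2.54 in X1 and -3.55 and -4.00 in X2, and was at background in Xins, at least 3.92-fold lower than in X2 (adjusted p = 0.00325 by limma). Contig3741 (plus strand, 35625) was at least 3.89-fold lower, with -3.69 and -3.77 in X2 above -4.96 and -4.67 in X1. Contig37968 (minus strand, 1254 to 1259), at -4.06 and -3.66 in X2, was at least 3.69-fold lower. Its probe sequence also stands at another site, so the signal cannot be given to this site alone. Its log2 fold change was -2.01 here and -6.76 in the authors' deposited table. With normexp and quantile normalization the log2 fold changes of these sites were -0.35, -0.33 and -0.58 in the same order. The last call (adjusted p = 0.0193 by limma) ended when any of the arrays compared other than array 2 of Xins was left out (adjusted p 0.0556 to 0.0917), after normexp (0.169), with no filter on dim probes (0.127), within the second slide row (0.0526) and in the authors' deposited table (0.116).

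The stem cell arrays took no part in the log2 fold changes. They share the scaling, and their spread entered the standard errors and so the calls. Fitted to the 4 compared arrays alone, 200 sites were called higher and 157 lower. Most of the sites that fell in Xins were also detected in X1: 181 of 195 (92.8%) were above background on both X1 arrays. Of the sites that rose, 119 of 203 (58.6%) were, and of the uncalled sites 765 of 908 (84.3%). These shares depend in part on the filter and the calls. A site called higher could be tested through Xins alone, and one called lower through X2 alone. The median level of the lower sites was -2.51 in X1, -2.86 in X2 and -4.67 in Xins. For the higher sites the medians were -4.93, -4.39 and -1.56. In both groups the X1 median thus lay on the same side of Xins as that of X2. On single arrays, the median of the higher sites was -4.18 and -4.48 on the X2 arrays and -1.55 and -1.49 on the Xins arrays, and that of the lower sites -2.87 and -2.72 against -4.65 and -4.67.

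**Figure D3:**
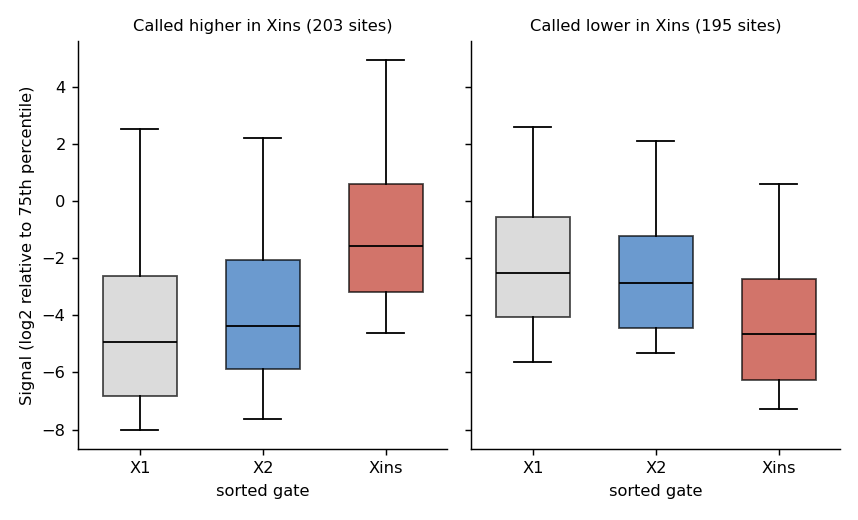
Mean signal per gate (log2 relative to the 75th percentile) of the 203 sites called higher and the 195 called lower in Xins; boxes span the quartiles, the line is the median over sites and whiskers reach the 5th and 95th percentiles. The separation of X2 from Xins follows from the calls. X1, which entered the calls only through the scaling and the spread, has a median of -4.93 in the left panel and -2.51 in the right.

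The width of a site is the stretch of positions over which cleavage was mapped. Wide sites were called higher more often than lower, and more so than narrow sites, which showed no direction that held across the fits. Of the 632 tested sites over 15 nt wide, 121 (19.1%) were higher in Xins and 65 (10.3%) lower. Among the 472 sites of 2 to 15 nt 55 (11.7%) were higher and 87 (18.4%) lower, and among the 202 sites of 1 nt 27 (13.4%) were higher and 43 (21.3%) lower. This excess of falls at narrow sites, 130 lower against 82 higher up to 15 nt, turned whenever 1 of the 4 compared arrays was left out. Higher against lower calls were then 48 and 36 without array 1 of X2, 54 and 31 without array 2 of X2, 67 and 60 without array 1 of Xins, and 62 and 58 without array 2 of Xins. It turned as well in the authors' deposited table (92 and 47), within the second slide row (56 and 32) and with no filter on dim probes (54 and 19). Over 15 nt, higher calls outnumbered lower ones whenever 1 of the 4 compared arrays was left out. With the replicate number as a block they were nearly equal (194 and 193). The size of a change did not follow width in this way, since the median rise was 6.39-fold at sites over 15 nt, 5.58-fold at 2 to 15 nt and 6.23-fold at 1 nt. Restricted to sites above background on all 4 arrays, the shares were 17.5% higher and 9.67% lower over 15 nt, 10.1% and 14.5% at 2 to 15 nt, and 9.71% and 11.7% at 1 nt. Probes changed with width too: their median length was 60 nt at the widest sites, 52 nt at 2 to 15 nt and 45 nt at 1 nt, and their median GC content 22.2%, 24.4% and 28.9%. The part of probe length and GC content in the result was not tested, and sites over 15 nt had 60-nt probes while no tested site of smaller width did, so width and probe length cannot be told apart.

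**Figure D4:**
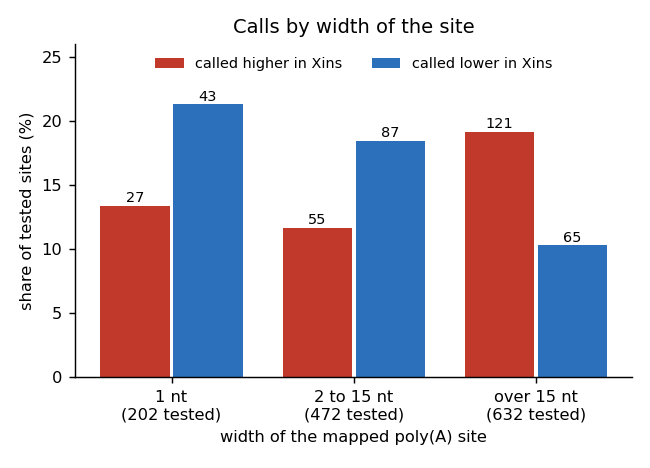
Share of tested sites called higher (red) and lower (blue) in Xins than in X2, in percent, by the width of the mapped site in nt, with the number of called sites above each bar. In the fit of all 6 arrays blue exceeds red at 1 nt and at 2 to 15 nt, an order that turned when 1 compared array was left out, and red exceeds blue above 15 nt.

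The poly(A) signal was present in sites of both directions. AATAAA started 10 to 35 nt from the 3′ end of 31.0% of the 239 probe sequences at higher sites, 38.8% of the 224 at lower sites and 31.1% of the 1052 at uncalled sites. ATTAAA without AATAAA was found in 8.37%, 5.36% and 4.94% of them. All 5406 sequences of the array held AATAAA in 41.6% and ATTAAA in 8.05%. Counted by site, AATAAA stood at 461 tested sites, of which 67 (14.5%) were higher and 82 (17.8%) lower, close to the shares of 15.5% and 14.9% over all tested sites. ATTAAA without AATAAA stood at 76 sites, of which 17 (22.4%) were higher and 12 (15.8%) lower. Sites with neither signal numbered 769, of which 119 (15.5%) were higher and 101 (13.1%) lower. The median GC content of the last 45 nt was 24.4% for higher, lower and uncalled sequences alike.

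Further letters were searched in the last 45 nt of each probe, in the direction printed: ATTTA, TGTA and the Pumilio-type motif TGTANATA, which holds TGTA. ATTTA was found in 26.8% of the sequences at higher sites, 20.5% at lower and 24.0% at uncalled sites. TGTANATA stood at 32 tested sites, and Xins was below X2 at 27 of them, while over all tested sites Xins was below X2 at 57.4%. The test called 10 of the 32 lower (31.3%, against 14.9% of all tested sites) and 2 higher (6.25%, against 15.5%). Their median log2 fold change was -0.89, against -0.28 for all tested sites. Seen from the calls, the motif stood at 5.13% of the lower sites, 2.20% of the uncalled and 0.985% of the higher, and it was found in 2.28% of all 5406 sequences. Of the 10 lower sites, 9 were above background on both X1 arrays, close to the 92.8% of all lower sites. The 8 measured in Xins were lower by 2.70-fold to 6.02-fold. The end of the motif can overlap the start of AATAAA, which was the case at 10 of the 32 sites, 2 of them called lower. The shorter core TGTA showed less: 65 of 344 sites were lower (18.9%) and 45 higher (13.1%). The motif was looked for with earlier results of these data known, and a match is a run of letters, not a shown binding site.

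Contig7294 (minus strand, 310 to 346), the motif site with the largest fall, read -3.57 and -2.95 in X2, -6.0 and -5.69 in Xins, where 1 array was above background, and -2.27 and -1.63 in X1. The gates formed separate steps, with a log2 fold change of Xins over X2 of -2.59 (SE 0.42, adjusted p = 0.00801 by limma). Its near copy Contig14077 (minus strand, 785 to 811) read -4.31 and -3.57 in X2 and was at background on both Xins arrays. Contig2858 (plus strand, 51191 to 51247) was above background on all 6 arrays, with -2.55 and -2.95 in X2 and -4.79 and -5.01 in Xins (log2 fold change -2.15, SE 0.44). X1, at -2.94 and -3.93, was there nearer to X2 than to Xins. Contig14241 (minus strand, 1351) fell from -3.52 and -3.93 to -5.60 and -5.95 (log2 fold change -2.05, SE 0.36), with 1 Xins array above background. The exceptions were Contig1287 (plus strand, 35568 to 35580), which rose from -5.26 and -4.66 to -2.36 and -1.73 (log2 fold change 2.92, SE 0.48), and Contig802 (plus strand, 31806 to 31817), which rose by 2.38 (SE 0.51). These sites were chosen after their values were seen. The count of 10 lower motif sites fell to 2 without array 1 of X2, to 3 without its array 2, to 4 without array 1 of Xins and to 5 without its array 2. Xins stayed below X2 at 26 to 28 of the 32 sites when any 1 array was left out. It was below at 25 in the authors' deposited table, where 47.6% of all tested sites were below. With spike-in scaling it was below at 29, where 71.4% of all tested sites were. With no filter on dim probes, 2 of the 32 sites were called lower and 2 higher, against 29 and 167 of all 5054 sites.

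**Figure D5:**
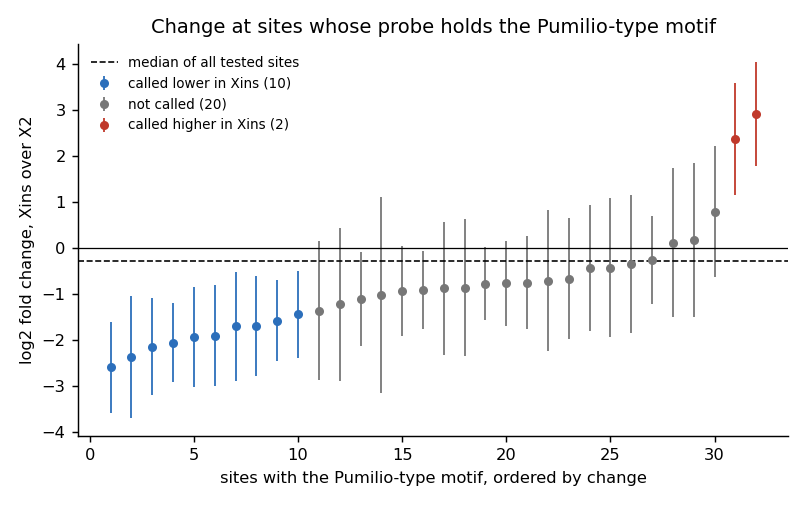
Log2 fold change of Xins over X2 with its 95% interval (not adjusted for the number of sites) at the 32 tested sites whose probe holds the Pumilio-type motif, in order of change. Blue marks the 10 sites called lower, red the 2 called higher and grey the 20 not called; 27 of the 32 points lie below 0, and the dashed line at -0.28 is the median of all tested sites.

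Different probes of a site mostly gave the same direction. At 233 tested sites 2 probe sequences were tested, and the sign of the change was the same in both at all 39 such sites called higher, at all 31 called lower and at 150 of the 163 uncalled. The call of a site rests on the mean of these sequences, so sites where they disagree are seldom called. The agreement at called sites is thus partly built in. The median gap between the 2 sequences was 0.11 on the log2 scale, and the largest was 2.16, at a site called higher. Both sequences read the same RNA, so they do not add replicates.

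A shift from one poly(A) site to another of the same transcript could be looked for at few places, and the sample labels name distal sites. Only 2 pairs of tested sites lay on the same contig and strand within 2000 nt of each other, and in limma's diffSplice 0 of the 2 pairs differed (0% called; 0 also at an unadjusted p under 0.05). One of these pairs gives no measurement: on the minus strand of Contig1291, the site at 47709 to 47767 was saturated on both X2 and both X1 arrays, so its change is unknown. Its neighbour at 46365 to 46408, 1300 nt away, read -1.32 (SE 0.51) as its log2 fold change, short of the threshold (adjusted p = 0.0891 by limma). On the minus strand of Contig430, the log2 fold changes were -1.52 (SE 0.48) at 63126 to 63201 and -0.59 (SE 0.39) at 64017 to 64029, a difference of 0.94 (adjusted p = 0.23 by limma, and 0.178 with saturated sites left out). Counted at any distance and on either strand, with the 2 pairs included, 119 contigs held more than 1 tested site. On 19 of them at least 2 sites were called, in the same direction on 15 and in both directions on 4. Calls over all tested sites were 203 higher and 195 lower, and whether sites of a contig share a direction more often was not tested.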

How the data were processed

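The deposited scanner tables hold linear 1-colour (Cy3) intensity. Agilent Feature Extraction 11.5.1.1 made them, per the file headers, with background subtraction, detrending and surrogates at dim spots. The sources used here name no genome build. The authors' deposited value table rises by 0.689 to 0.716 per unit of log2 scanner signal, highest in X2 array 1, against 0.693 for a natural log, and served, taken as natural log and turned into log2, as an alternative. Its direction follows the signal, its column medians run from 0.981 to 1.31, and its scaling and centring are unknown. Controls were left out, as were 11 outlier spots.

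The processed signal was taken to log2, and the 75th percentile of 1914 probes that passed the background mark on all 6 arrays was subtracted. A probe passed where all its spots did. A site's value is the mean over its distinct tested probe sequences. limma 3.58.1 in R 4.3.3 was fitted to all 6 arrays (6.69 degrees of freedom), without a block; the fit was tested on simulated data. Figures were drawn with matplotlib 3.10.9. Named sites are the 6 largest rises and 6 largest falls above background on all 4 arrays and the 3 highest bounds each way. The planned naming of the brightest sites was dropped, since signals of different probes cannot be compared. Cell type marker lists could not be matched to any probe. Sites, lists and motifs were chosen with earlier results of these data known.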

Additional observations from a re-analysis of the deposited data

How the results depend on the processing

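Among 369 values of the 18 named sites under alternatives, 0 changed direction and 357 stayed past the threshold; the direction was fixed in part by choosing sites whose arrays do not overlap. Higher sites numbered 131 after normexp with quantile normalization, 70 with spike-in scaling and 332 with the replicate block. Lower sites numbered 72 in the authors' deposited table, 84 with spike-in scaling, 121 with a filter on all 4 arrays (989 sites tested), 29 with no filter (5054 sites tested), 50 within the second slide row and 477 with the replicate block. Leaving out each array in turn gave 129 to 200 higher and 44 to 157 lower sites; where this left 1 array in a gate, it was assumed to vary like the others. Of the neighbouring pairs, 1 of 2 was called after quantile normalization, in the authors' deposited table and with spike-in scaling, and 2 of 2 with the replicate block. The single call was each time the pair on Contig1291, whose saturated site voids it, and the pair on Contig430 was called with the replicate block alone (adjusted p = 0.00175 by limma). After normexp with quantile normalization the Contig430 pair had an unadjusted p of 0.0375 by limma. Its adjusted p there was 0.075 by limma, an adjustment that counts the voided pair. The block also moved the lower sites with TGTANATA from 10 to 23. The replicate numbers are shared by the gates but not said to pair samples; deviations of same-numbered arrays correlated at 0.41 between X2 and Xins, 0.62 between X1 and X2 and 0.49 between X1 and Xins. The cause of these changes was not tested. No site called in 1 direction was called in the other under any of these settings (0 in each). The slide row alone, sites sharing a sequence, the motif and the width classes were chosen after seeing the data. Dim probes limit both directions: 38 of the 195 lower sites were at background in Xins and 36 of the 203 higher sites in X2. They do not limit them alike: where a bound exceeded 1, its median was 1.48-fold for lower and 3.31-fold for higher sites.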
